A study of Mus musculus with 8 samples.

Results

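The 10 genes described here encode receptor chains for interleukins, the transcription factors that those receptors switch on, and the feedback inhibitors that switch them off. They are the receptor chains Il2rb, Il2rg, Il7r, Il4ra and Il6ra, the transcription factors Stat5a and Stat5b, and the inhibitors Cish, Socs2 and Socs3. They were taken by gene symbol from a count table of 38406 mouse genes, and each symbol matched 1 row. All 10 were well above the filter on low counts, which left 14772 genes for testing.

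The RNA came from regulatory T cells (Tregs, CD4 T cells that express Foxp3 and hold immune reactions in check) of injured skeletal muscle and of spleen. There were 4 groups of 2 libraries each, namely aged muscle, young muscle, aged spleen and young spleen. All mice were male C57BL/6, aged over 6 months in the aged groups and 2 months in the young groups. In the protocol that all samples share, the tibialis anterior, quadriceps and gastrocnemius were injected with cardiotoxin, a venom toxin that kills muscle fibres, at 0.9 µg per muscle. Tissues were taken 4 days after injury, so the spleen groups also came from injured mice and no uninjured group was analysed here. Each library was made from 1500 Tregs, sorted in 2 rounds. The labels call the libraries of a group biological duplicates without saying whether they came from separate animals or from pools, so the p-values below measure only the spread between these libraries.

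Interleukin receptors of this kind have no enzyme of their own. Binding of the cytokine brings Janus kinases together on the receptor tails, and these phosphorylate STAT proteins, which pair up and act on genes in the nucleus. Tregs depend on IL-2, which signals through Il2rb and Il2rg to STAT5, and STAT5 maintains Foxp3 itself. STAT5 also turns on Cish and several Socs genes, whose proteins bind the receptor or the kinase and damp the signal, so the transcripts of these inhibitors are often used as readouts of recent cytokine signalling.

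STAT5 dimers bind the palindrome TTCNNNGAA, which reads the same on both strands. Promoter windows from RefSeq (build GRCm38.p6), running from 250 bases before to 50 bases after each annotated start, were found for 8 of the 10 genes, and Il2rb and Socs2 had no entry in that table. The motif lay in the windows of 3 genes, Cish, Socs3 and Il7r, and was not found in these windows for Il2rg, Il4ra, Il6ra, Stat5a and Stat5b. Over all 32851 windows of the same length, 8.3% held it, and counted by gene 9.55% of 27025 genes did. The stretches of Cish, Socs3 and Il7r are shown because they held the motif. Il6ra also had called tissue differences below and held no motif in its window. Each stretch is 120 bases long, 5′ to 3′ on the gene's own strand with the motif in capitals. Cish is read from chr9:107296559-107296678 on the plus strand, Socs3 from chr11:117969457-117969576 on the minus strand, and Il7r from chr15:9529957-9530076 on the minus strand.
Cish: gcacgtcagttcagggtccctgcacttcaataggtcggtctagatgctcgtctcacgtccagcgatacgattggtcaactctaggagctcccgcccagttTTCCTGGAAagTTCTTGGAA
Socs3: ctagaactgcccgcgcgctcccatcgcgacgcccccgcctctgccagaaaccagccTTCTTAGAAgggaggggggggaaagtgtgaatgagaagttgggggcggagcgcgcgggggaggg
Il7r: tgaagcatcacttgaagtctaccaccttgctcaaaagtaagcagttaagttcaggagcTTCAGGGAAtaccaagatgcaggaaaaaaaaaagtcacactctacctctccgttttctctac
The Cish copies begin at base 1 and base 12 counted from the RefSeq start and do not overlap. Those of Socs3 and Il7r begin 154 and 142 bases before their RefSeq starts. In GENCODE M21, the annotation of the gene positions given below, these 3 genes start further upstream. All of these copies lie inside the genes as annotated there. A match of letters is a description of the sequence, and no binding was measured here.

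The libraries held between 1969982 and 4008622 counts. The lowest count of any of the 10 genes in any library was 144, for Il6ra, with an exact 95% Poisson interval of 121 to 170 that covers counting error only. Levels below are in CPM (counts divided by library size, with TMM scaling factors), and since CPM ignores transcript length, levels are compared between libraries and never between genes. Foxp3 was present in all 8 libraries, at 15.4 to 41.5 CPM. The summed level of 4 Treg markers was 2510 to 3430 CPM in the muscle libraries and 1740 to 2090 CPM in the spleen libraries. These markers did not go one way. Ctla4 had 1330 to 2470 CPM in muscle and 481 to 595 CPM in spleen. Ikzf2 had 554 to 1050 CPM in muscle and 779 to 1250 CPM in spleen. The ranges of Ikzf2, Foxp3 and Il2ra overlapped between the tissues. Within each age, the muscle libraries were below the spleen libraries in Ikzf2. In Il2ra they were below in young mice and above in aged mice. Young muscle replicate 1 stood furthest apart. Its 11 myeloid markers summed to 548 CPM, against 31.0 to 98.9 CPM in the other 7 libraries (52.9 and 60.0 in aged muscle, 98.9 in young muscle replicate 2, 47.8 and 51.2 in aged spleen, 57.5 and 31.0 in young spleen), and its 7 stromal and endothelial markers to 551 CPM, against 155 to 354 CPM. Of the stromal and endothelial markers, Pecam1 alone had 119 to 344 CPM in the other 7 libraries and 157 CPM in young muscle replicate 1. Col1a1 had 150 CPM in young muscle replicate 1 and 1.02 to 15 CPM in the others. Aged muscle replicate 2 had the highest Dcn, 30.4 CPM against 0 to 3.22 CPM, and Col3a1 at 28.3 CPM. For the 10 genes, the level in young muscle replicate 1 divided by that of young muscle replicate 2 was 0.765 for Stat5a and otherwise between 0.959 and 1.11. The 3 erythroid markers in the table summed to 3.35 and 10.1 CPM in aged muscle, 39.8 and 5.99 CPM in young muscle, 110 and 148 CPM in aged spleen, and 57.0 and 20.5 CPM in young spleen, so they were highest in aged spleen, the group with the lowest Socs2. Of these, the globins Hba-a1 and Hba-a2, near-identical genes, were lower in aged muscle than in aged spleen (adjusted p = 0.0101 and 0.0282). The part of the myeloid, stromal and erythroid markers, and of the tissue difference in Treg markers, in the results below was not tested. For the 10 genes, results that involve young muscle are also given without its replicate 1 wherever that changed a call. In bulk RNA, fewer cells of a type and less RNA per cell cannot be told apart.

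**Figure D1:**
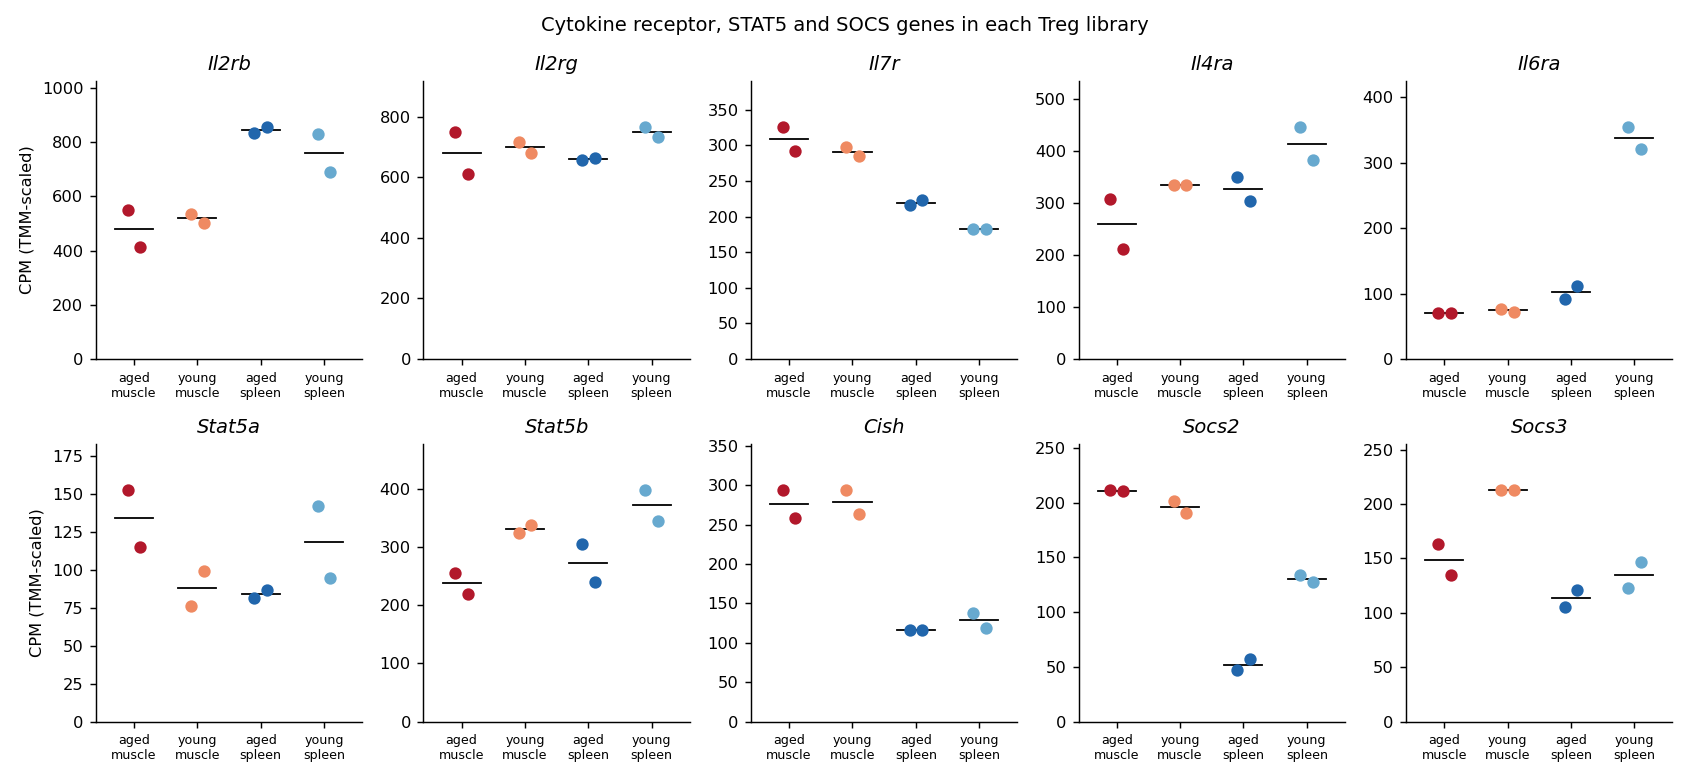
Level of each of the 10 genes in every library (CPM, axes starting at 0), with aged muscle, young muscle, aged spleen and young spleen from left to right. Each point is 1 library and the bar is the mean of the 2 libraries of a group. Cish and Socs2 are higher in all 4 muscle libraries than in any spleen library, and Il6ra is above 300 CPM only in the young spleen libraries.

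The first question the design poses is how muscle Tregs differ from splenic Tregs of the same age. In aged mice 3 of the 10 genes (Il7r, Cish and Socs2) were higher and 2 (Il2rb and Il6ra) were lower in muscle at an adjusted p under 0.05 in edgeR's quasi-likelihood test, against 18.8% of all 14772 genes called in either direction. In young mice 4 (Il7r, Cish, Socs2 and Socs3) were higher and 2 (Il2rb and Il6ra) lower, against 22.3% of all genes. At both ages muscle Tregs carried more transcript of the feedback inhibitors Cish and Socs2 and of the IL-7 receptor, and less of the beta chain that the IL-2 and IL-15 receptors share and of the IL-6 receptor. Not all of these calls were firm. Only Cish at both ages, Socs2 and Il2rb in aged mice, and Il6ra in young mice were called under every alternative run. The aged call of Il6ra ended under 10 of 14 alternatives and that of Il7r under 7. The median log2 fold change of the 10 genes was 0.22 in aged mice and -0.14 in young mice, against 0.03 and 0.07 over all genes tested in the same comparisons. Leaving out 1 library moved the number called to between 3 and 6 in aged mice and between 2 and 6 in young mice. The low ends came without either aged spleen or either young spleen library in aged mice, with 3 called each, and without young spleen replicate 1 or 2 in young mice, with 2 and 3 called. Without young muscle replicate 1, the library with the myeloid markers, 5 were called in young mice.

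Among the receptor chains, Il2rb (chromosome 15, 78479256 to 78495271, minus strand, GENCODE M21 on GRCm38) carries much of the signalling tail of the IL-2 receptor. Its level was 549 and 412 CPM in aged muscle, 536 and 503 CPM in young muscle, 834 and 854 CPM in aged spleen, and 831 and 689 CPM in young spleen. Every muscle library was below every spleen library, whereas the ages overlapped within muscle. The log2 fold change of muscle over spleen was -0.81 ± 0.16 (SE) in aged mice (adjusted p = 0.00338) and -0.55 ± 0.16 in young mice (adjusted p = 0.026). The aged call held when any 1 library was left out. The young call ended without young spleen replicate 1 (-0.41) or 2 (-0.68), without young muscle replicate 2 (-0.50), and, with the estimate unchanged at -0.55, without either aged spleen library.

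Il7r (chromosome 15, 9505788 to 9530176, minus strand) encodes the IL-7 receptor alpha chain, which conventional T cells use for survival and which Tregs carry at low surface levels. Its level was 325 and 293 CPM in aged muscle, 298 and 285 CPM in young muscle, 216 and 223 CPM in aged spleen, and 183 and 182 CPM in young spleen. All 4 muscle libraries were above all 4 spleen libraries, and within spleen the aged pair lay above the young pair. The log2 fold change of muscle over spleen was 0.50 ± 0.15 in aged mice (adjusted p = 0.0298) and 0.68 ± 0.15 in young mice (adjusted p = 0.00494). The aged call ended without either young spleen library (0.50 each), without aged spleen replicate 1 (0.47) or 2 (0.52), and without aged muscle replicate 1 (0.44), as well as with no filter on low counts (0.44) and in a fit of only these groups (0.48). The young call ended without young spleen replicate 1 (0.68) or 2 (0.67).

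Il6ra (chromosome 3, 89864059 to 89913196, minus strand) encodes the ligand-binding chain of the IL-6 receptor, which signals with gp130 mainly to STAT3. Its level was 70.8 and 70.6 CPM in aged muscle, 77.2 and 71.9 CPM in young muscle, 92.4 and 112 CPM in aged spleen, and 354 and 321 CPM in young spleen. Young spleen stood far above the other groups, aged spleen came next, and the muscle groups were close to each other. The log2 fold change of muscle over spleen was -2.18 ± 0.18 in young mice (adjusted p = 6.13e-07), a 4.52-fold lower level, and this held under every alternative run. In aged mice it was -0.53 ± 0.18 (adjusted p = 0.0472). That call was near the threshold and ended without any 1 of the aged muscle libraries (-0.51 without replicate 1, -0.53 without replicate 2), aged spleen libraries (-0.66 and -0.39) or young spleen libraries (-0.53 each). It also ended with RLE scaling (-0.48), library totals alone (-0.46), DESeq2 (-0.48) and a fit of only these groups (-0.54).

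The remaining receptor chains passed the test in neither age. Il2rg (chromosome X, 101264378 to 101268255, minus strand) is the common gamma chain, the partner of Il2rb, Il7r and, for type I IL-4 signalling, Il4ra. Its level was 749 and 612 CPM in aged muscle, 717 and 680 CPM in young muscle, 659 and 663 CPM in aged spleen, and 765 and 734 CPM in young spleen. The 95% interval of its log2 fold change of muscle over spleen ran from -0.27 to 0.35 in aged mice and from -0.41 to 0.21 in young mice, so a difference the size of that of Il6ra in young mice lay outside it. In the annotation, 728 exonic bases of Il2rg are shared with the gene Gm20489 on the same strand, and how the authors' counting treated such reads is not given in the sources used here.

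Il4ra (chromosome 7, 125552120 to 125579474, plus strand) encodes the IL-4 and IL-13 receptor alpha chain, which signals mainly to STAT6. Its level was 308 and 211 CPM in aged muscle, 335 and 335 CPM in young muscle, 349 and 304 CPM in aged spleen, and 445 and 383 CPM in young spleen. Young spleen was highest and aged muscle replicate 2 lowest, with the other libraries close together. The log2 fold change of muscle over spleen was -0.33 ± 0.18 in aged mice (adjusted p = 0.204) and -0.31 ± 0.18 in young mice (adjusted p = 0.233). Without aged muscle replicate 1 the aged value was -0.61 and passed the threshold.

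Stat5a and Stat5b are neighbouring genes for near-identical proteins that act downstream of these receptors. Stat5a (chromosome 11, 100859351 to 100885169, plus strand) had 152 and 115 CPM in aged muscle, 76.0 and 99.4 CPM in young muscle, 81.6 and 86.5 CPM in aged spleen, and 142 and 94.5 CPM in young spleen. Both aged muscle libraries and young spleen replicate 1 were above the other 5, young spleen overlapped young muscle, and libraries within a group differed by up to 1.5-fold. The log2 fold change of muscle over spleen was 0.67 ± 0.23 in aged mice (adjusted p = 0.0509) and -0.43 ± 0.23 in young mice (adjusted p = 0.19). The aged value missed the threshold narrowly and passed it under 9 of 14 alternatives, among them leaving out aged muscle replicate 2 (0.86), young muscle replicate 1 (0.67) or young muscle replicate 2 (0.67).

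Stat5b (chromosome 11, 100780731 to 100850724, minus strand) had 256 and 219 CPM in aged muscle, 324 and 337 CPM in young muscle, 304 and 240 CPM in aged spleen, and 398 and 345 CPM in young spleen. Both young groups lay above both aged groups. The log2 fold change of muscle over spleen was -0.20 ± 0.17 in aged mice and -0.17 ± 0.17 in young mice, and neither passed the test.

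Of the inhibitors, Cish and Socs2 were called higher in muscle at both ages and Socs3 in young mice. Cish (chromosome 9, 107296026 to 107302784, plus strand) encodes the founding member of the SOCS family, a STAT5-induced inhibitor of cytokine and T cell receptor signalling. Its RefSeq promoter window held both motif copies shown above. Its level was 294 and 258 CPM in aged muscle, 294 and 264 CPM in young muscle, 117 and 116 CPM in aged spleen, and 138 and 119 CPM in young spleen. Muscle libraries formed one high set and spleen libraries one low set, and age made little difference in either. Cish was 2.36-fold higher in aged muscle (log2 fold change 1.24 ± 0.16, adjusted p = 0.000115) and 2.17-fold higher in young muscle (1.12 ± 0.16, adjusted p = 0.000208). Both calls held under every alternative run. On the opposite strand, 740 exonic bases are shared with Gm17040 and Gm17041, and the strand setting of the counting is not given in the sources used here.

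Socs2 (chromosome 10, 95385362 to 95417180, minus strand) encodes an inhibitor best known for restraining growth hormone signalling and is also induced by STAT5. Its level was 212 and 211 CPM in aged muscle, 202 and 190 CPM in young muscle, 47.3 and 57.0 CPM in aged spleen, and 134 and 128 CPM in young spleen. The order was aged muscle, young muscle, young spleen and aged spleen, with no overlap between neighbours, although the muscle groups differed by a log2 value of only 0.11. Socs2 was 4.06-fold higher in aged muscle (log2 fold change 2.02 ± 0.17, adjusted p = 2.52e-06), which held under every alternative run. In young muscle it was 1.5-fold higher (0.59 ± 0.17, adjusted p = 0.0209), and that call ended without young spleen replicate 1 (0.62) or 2 (0.55) or young muscle replicate 1 (0.54).

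Socs3 (chromosome 11, 117966079 to 117970047, minus strand) encodes the main inhibitor of signalling through gp130, the partner of Il6ra. Its level was 163 and 135 CPM in aged muscle, 213 and 213 CPM in young muscle, 105 and 121 CPM in aged spleen, and 122 and 147 CPM in young spleen. Young muscle was highest and aged spleen lowest, while the lower aged muscle library fell within the range of young spleen. Socs3 was 1.58-fold higher in young muscle (log2 fold change 0.66 ± 0.18, adjusted p = 0.015), and that call ended without young spleen replicate 1 (0.54). In aged muscle the value was 0.40 ± 0.18 (adjusted p = 0.123).

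**Figure D2:**
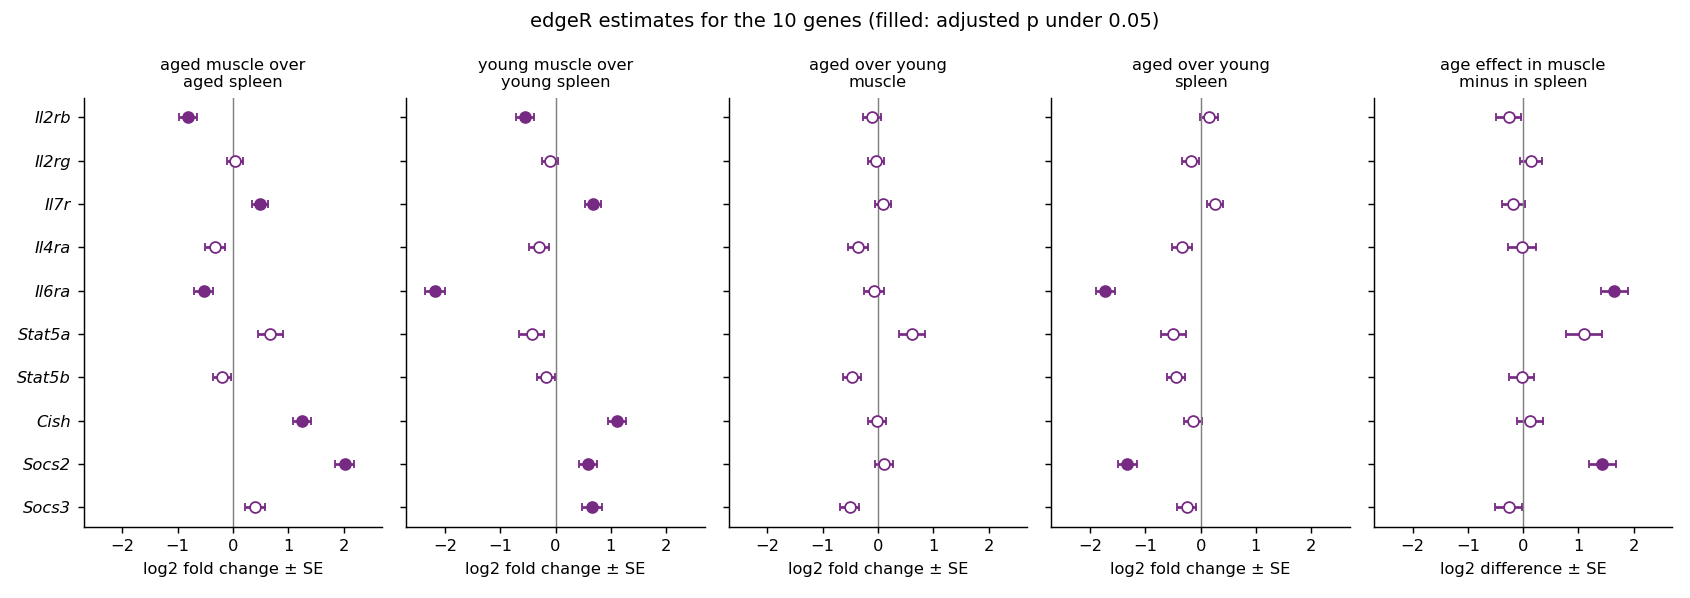
Log2 fold changes of the 10 genes with their standard errors in the 5 comparisons, from left to right aged muscle over aged spleen, young muscle over young spleen, aged over young muscle, aged over young spleen, and the age effect in muscle minus that in spleen. Filled points passed an adjusted p of 0.05 in edgeR. Cish is filled in both tissue comparisons, and the age comparison in muscle has no filled point.

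The second question is what age does within each tissue. In muscle none of the 10 genes passed the test in edgeR, against 2.02% of all genes, and none passed in DESeq2. At an unadjusted p under 0.05 there were 3 genes in edgeR, against 15.3% of all genes tested. The log2 value of Stat5a, aged over young, was 0.61 ± 0.23 (adjusted p = 0.208). Stat5b had -0.48 ± 0.17 (adjusted p = 0.174), and Socs3 had -0.51 ± 0.18 (adjusted p = 0.164). For each of these 3 genes the aged and young muscle libraries did not overlap. The same held for Il4ra, Il6ra and Socs2, so non-overlap of 2 against 2 libraries does not set the 3 genes apart. The share of all genes without overlap was not worked out. The values of Cish (-0.02), Il2rg (-0.04), Il6ra (-0.08), Il7r (0.09), Socs2 (0.11) and Il2rb (-0.11) were close to 0. Their intervals leave room for small changes, since that of Cish ran from -0.36 to 0.32. Il4ra had -0.37 ± 0.18 (adjusted p = 0.352).

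In spleen 2 of the 10 genes, Il6ra and Socs2, were lower in aged than in young mice and none was higher, against 4.24% of all genes called. Il6ra fell 3.31-fold (log2 fold change -1.73 ± 0.17, adjusted p = 3.58e-05) and ranked 18 among all genes by p. Socs2 fell 2.51-fold (-1.33 ± 0.17, adjusted p = 0.000344) and ranked 67. Both calls held under every alternative run. In both genes each aged spleen library was below each young one. Aged and young spleen libraries also did not overlap in genes that did not pass, such as Cish and Il2rg, so this does not set Il6ra and Socs2 apart. How often this happened over all genes was not worked out. At an unadjusted p under 0.05 there were 4 of the 10, against 16.7% of all genes tested, the others being Stat5a (-0.49 ± 0.23, adjusted p = 0.294) and Stat5b (-0.45 ± 0.16, adjusted p = 0.164). The receptor genes Il7r (0.27), Il2rb (0.15), Il2rg (-0.18) and Il4ra (-0.34), and the inhibitors Cish (-0.14) and Socs3 (-0.25), did not pass. When only the spleen libraries entered the fit, 4 genes passed, with Il4ra (-0.36) and Stat5b (-0.46) added on the lower side.

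The difference between the age effects, muscle minus spleen, passed the test for 2 of the 10 genes, against 2.52% of all genes. They were again Il6ra (1.65 ± 0.25, adjusted p = 0.00149) and Socs2 (1.43 ± 0.24, adjusted p = 0.00344), which had near-equal levels at both ages in muscle and lower levels in aged spleen. This test shares its spleen libraries with the age comparison in spleen, so it is not a separate observation of the spleen decline. The Il6ra difference held under every alternative run. The Socs2 difference ended without aged spleen replicate 1 (1.30, adjusted p = 0.0532, against 4.67e-05 to 0.0532 over all alternatives), and 1 of the 10 genes was then called. For Stat5a the difference was 1.10 ± 0.32 (adjusted p = 0.101), with a higher level in aged than in young muscle and a lower level in aged than in young spleen, and it passed the threshold without young muscle replicate 2 (1.30).

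Because both Stat5 genes were counted in the same libraries, their ratio does not depend on how libraries are scaled. Stat5a made up 37.3% and 34.4% of the summed Stat5a and Stat5b counts in aged muscle, with 95% Wilson intervals of 34.5 to 40.2% and 31.2 to 37.8%. In young muscle the shares were 19% and 22.8%, in aged spleen 21.2% and 26.5%, and in young spleen 26.3% and 21.5%. Both aged muscle libraries were above the other 6, and their intervals do not reach those of the other libraries. The ratio was chosen after the values were seen and is given with no test, and the intervals cover counting error only. The annotated transcripts share 8.21% of the 50-base words of Stat5a and 11.0% of those of Stat5b, so reads from those stretches cannot be assigned to 1 of the genes. Another gene on the opposite strand shares 72 exonic bases with Stat5a, and the strand setting of the counting is not given.

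**Figure D3:**
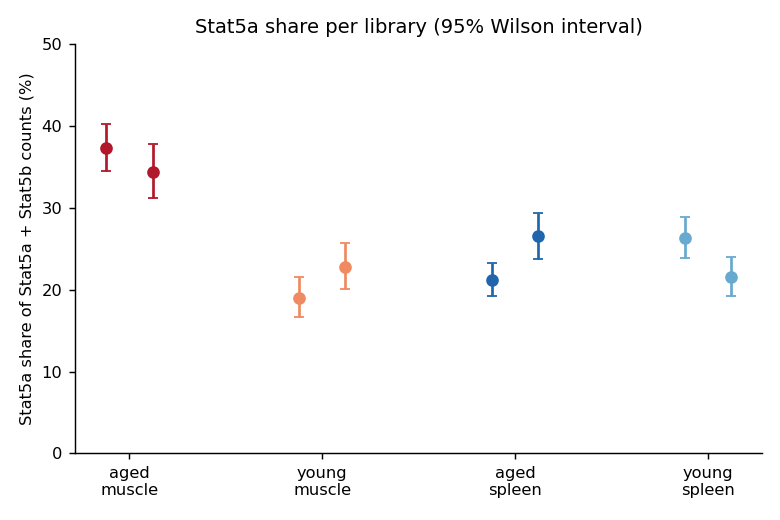
Stat5a counts as a percentage of Stat5a plus Stat5b counts in each library, with 95% Wilson intervals, for aged muscle, young muscle, aged spleen and young spleen from left to right. The aged muscle libraries sit at 37.3% and 34.4%, above the other 6 libraries, which lie between 19% and 26.5%.

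The rest of the pathway was followed through a list of 74 other genes, of which 63 passed the filter on low counts. Between muscle and spleen, 12 of these 63 were higher and 14 lower in aged mice, and 13 were higher and 15 lower in young mice. Over all genes tested, 9.57% were higher and 9.27% lower in aged mice, and 11.4% higher and 10.9% lower in young mice. Without aged spleen replicate 1 or 2 the aged total of 26 fell to 12 and 13, and over the other left-out libraries it was 20 to 29. In young mice the total of 28 was 20 to 34 with 1 library left out. The alpha chain of the IL-2 receptor, Il2ra (CD25), had 315 and 278 CPM in aged muscle, 303 and 308 CPM in young muscle, 202 and 219 CPM in aged spleen, and 379 and 411 CPM in young spleen. It fell in aged spleen (-0.91 ± 0.15, adjusted p = 0.0024), although that call ended when replicate 1 (-0.85) or 2 (-0.97) of aged spleen or replicate 2 of young spleen (-0.85) was left out. In muscle its age difference was -0.04. The difference of age effects in Il2ra was 0.87 ± 0.21 (adjusted p = 0.0396), and it ended without either young spleen library (0.93 without replicate 1, 0.81 without replicate 2), either aged spleen library (0.81 and 0.93) or young muscle replicate 1 (0.86), and with no filter on low counts (0.84). Between tissues Il2ra was higher in muscle in aged mice (0.50 ± 0.15, adjusted p = 0.0307), a call that ended without either young spleen library (0.50 each), either aged spleen library (0.44 and 0.56) or aged muscle replicate 1 (0.43), with no filter on low counts (0.44), and in a fit of only these groups (0.49). In young mice the value was -0.37 ± 0.15 (adjusted p = 0.0849), and it passed the threshold without either aged muscle library (-0.37 each).

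Among 18 other receptor chains, 3 were higher and 3 lower in muscle at each age, against 9.57% higher and 9.27% lower of all genes in aged mice and 11.4% and 10.9% in young mice. Their median log2 fold change was 0.27 in aged mice and 0.63 in young mice, against 0.03 and 0.07 over all genes. Ifngr1, the ligand-binding chain of the interferon-gamma receptor, was higher by 1.54 ± 0.15 on the log2 scale in aged mice (adjusted p = 8.08e-06) and by 1.38 ± 0.15 in young mice (adjusted p = 1.25e-05). In young mice Crlf2, the receptor chain for TSLP that pairs with Il7r, was higher by 1.13 ± 0.18, and Il10ra, the IL-10 receptor alpha chain, by 1.02 ± 0.20. These calls, and those of Ifngr1, held under every alternative run. In aged mice Crlf2 had 0.35 ± 0.17 (adjusted p = 0.172) and Il10ra 0.56 ± 0.19 (adjusted p = 0.0581), and neither was called. Of the chains called lower in edgeR, Il21r had -0.71 ± 0.17 in young mice (adjusted p = 0.00944) and -0.59 ± 0.17 in aged mice (adjusted p = 0.0253). In aged mice Ifnar2 had -1.59 ± 0.32 (adjusted p = 0.0032) and Il6st, the gene for gp130, -0.80 ± 0.23 (adjusted p = 0.0246). The alternatives were not checked for Il21r in aged mice. None of the other lower calls named here held under every alternative run. That of Il21r in young mice ended, among others, without young muscle replicate 1. Of 13 ligand genes only 3 passed the filter and none was called, and Il2 itself had a count of 0 or 1 in each library.

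Among the 9 Janus kinases and other STATs, 1 was higher and 2 lower in aged muscle than in aged spleen, and 3 were higher and 3 lower in young muscle than in young spleen. Their medians were -0.20 and -0.37, against 0.03 and 0.07 over all genes, of which 18.8% and 22.3% were called. Stat6, the main STAT downstream of Il4ra, had 77.0 to 108 CPM in aged muscle, 93.3 to 108 CPM in young muscle, 136 to 165 CPM in aged spleen, and 187 to 205 CPM in young spleen. Every muscle library was below every spleen library. Muscle over spleen, Stat6 had a log2 fold change of -0.96 ± 0.20 in young mice (adjusted p = 0.00306), held under every alternative run. In aged mice it was -0.70 ± 0.20 (adjusted p = 0.0235), and that call ended without aged spleen replicate 1 (-0.84) or 2 (-0.55) or aged muscle replicate 2 (-0.48).

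Of 16 other negative regulators of this signalling, none was higher in muscle at either age, while 5 were lower in aged mice and 4 in young mice, against 9.27% and 10.9% of all genes tested called lower. Their median log2 fold change was -0.48 in aged mice and -0.49 in young mice, against 0.03 and 0.07 over all genes tested. Cbl, a ubiquitin ligase that removes receptors and kinases, had a log2 fold change of -1.83 ± 0.19 in aged mice (adjusted p = 1.13e-05) and -1.51 ± 0.18 in young mice (adjusted p = 3.25e-05). Ptpn6, the phosphatase SHP-1, was lower, at -1.46 ± 0.23 in aged mice (adjusted p = 0.000655) and -1.66 ± 0.24 in young mice (adjusted p = 0.000179). These calls held under every alternative run. Socs1, the SOCS family member that blocks the kinases most directly, had 144 to 152 CPM in aged muscle, 116 to 120 CPM in young muscle, 198 to 227 CPM in aged spleen, and 213 to 232 CPM in young spleen. Its log2 fold change of muscle over spleen was -0.92 ± 0.16 in young mice (adjusted p = 0.000998), held under every alternative run, so Socs1 and the trio of Cish, Socs2 and Socs3 had opposite signs there. In aged mice the Socs1 value was -0.52 ± 0.16 (adjusted p = 0.0351), and that call ended without any 1 of the aged spleen (-0.61 and -0.42), aged muscle (-0.53 and -0.48) or young spleen (-0.52 each) libraries, with DESeq2 (-0.47), and in a fit of only these groups (-0.53).

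Of 17 genes listed as STAT5 targets in T cells, 8 were higher and 4 lower in aged muscle, and 7 were higher and 5 lower in young muscle, each against spleen of the same age. Over all genes 9.57% were higher and 9.27% lower in aged mice, and 11.4% and 10.9% in young mice. The list's median log2 fold change was 0.54 in aged mice and 0.16 in young mice, against 0.03 and 0.07 over all genes. The list did not go one way. Pim1, a survival kinase, was higher by 1.62 ± 0.21 on the log2 scale in aged mice (adjusted p = 8.05e-05) and by 1.04 ± 0.21 in young mice (adjusted p = 0.00235). Tnfrsf4 (OX40), a co-stimulatory receptor of activated T cells, was higher by 1.33 ± 0.15 in young mice (adjusted p = 1.33e-05) and by 0.53 ± 0.14 in aged mice (adjusted p = 0.0189). Bcl2, which protects T cells from death, was lower, at -2.16 ± 0.20 in aged mice (adjusted p = 3.59e-06) and -2.91 ± 0.20 in young mice (adjusted p = 1.11e-07). Ccnd3, a cyclin of the G1 phase, was lower, at -1.73 ± 0.15 in aged mice (adjusted p = 2.94e-06) and -1.95 ± 0.15 in young mice (adjusted p = 4.14e-07). Bcl6, a repressor that STAT5 is known to lower, had -2.30 ± 0.23 in aged mice (adjusted p = 8.29e-06). The alternatives were not checked for Pim1 and Bcl6 in young mice or for Tnfrsf4 in aged mice. All the other calls named from this list held under every alternative run.

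With age, 3 of the 63 other pathway genes were higher and none lower in muscle, against 1.14% higher and 0.88% lower over all genes. In spleen 5 were higher and 3 lower, against 2.08% and 2.17%. The spleen total of 8 was 2 without young spleen replicate 1, 2 without replicate 2, 1 without aged spleen replicate 1, 2 without replicate 2, and 16 in a fit of only the spleen libraries. The muscle total of 3 was 6 (3 higher, 3 lower) without young muscle replicate 2 or with no filter, 5 with DESeq2, and 0 in a fit of only the muscle libraries. In muscle, Ccnd2, a cyclin that cytokines induce, had 429 to 552 CPM in aged mice and 186 to 233 CPM in young mice. It was 1.23 ± 0.17 higher on the log2 scale (adjusted p = 0.00105), whichever library was left out, but the call ended when only the muscle libraries entered the fit (1.23). In spleen Ccnd2 had 323 CPM in both aged libraries and 527 to 584 CPM in the young ones. Its difference of age effects was 2.01 ± 0.24 (adjusted p = 0.000197), held under every alternative run. Tnfrsf4 was higher in aged spleen by 1.15 ± 0.15 on the log2 scale (adjusted p = 0.00027), also held throughout. Socs1 differed by 0.33 ± 0.16 with age in muscle (adjusted p = 0.354) and -0.07 in spleen.

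**Figure D4:**
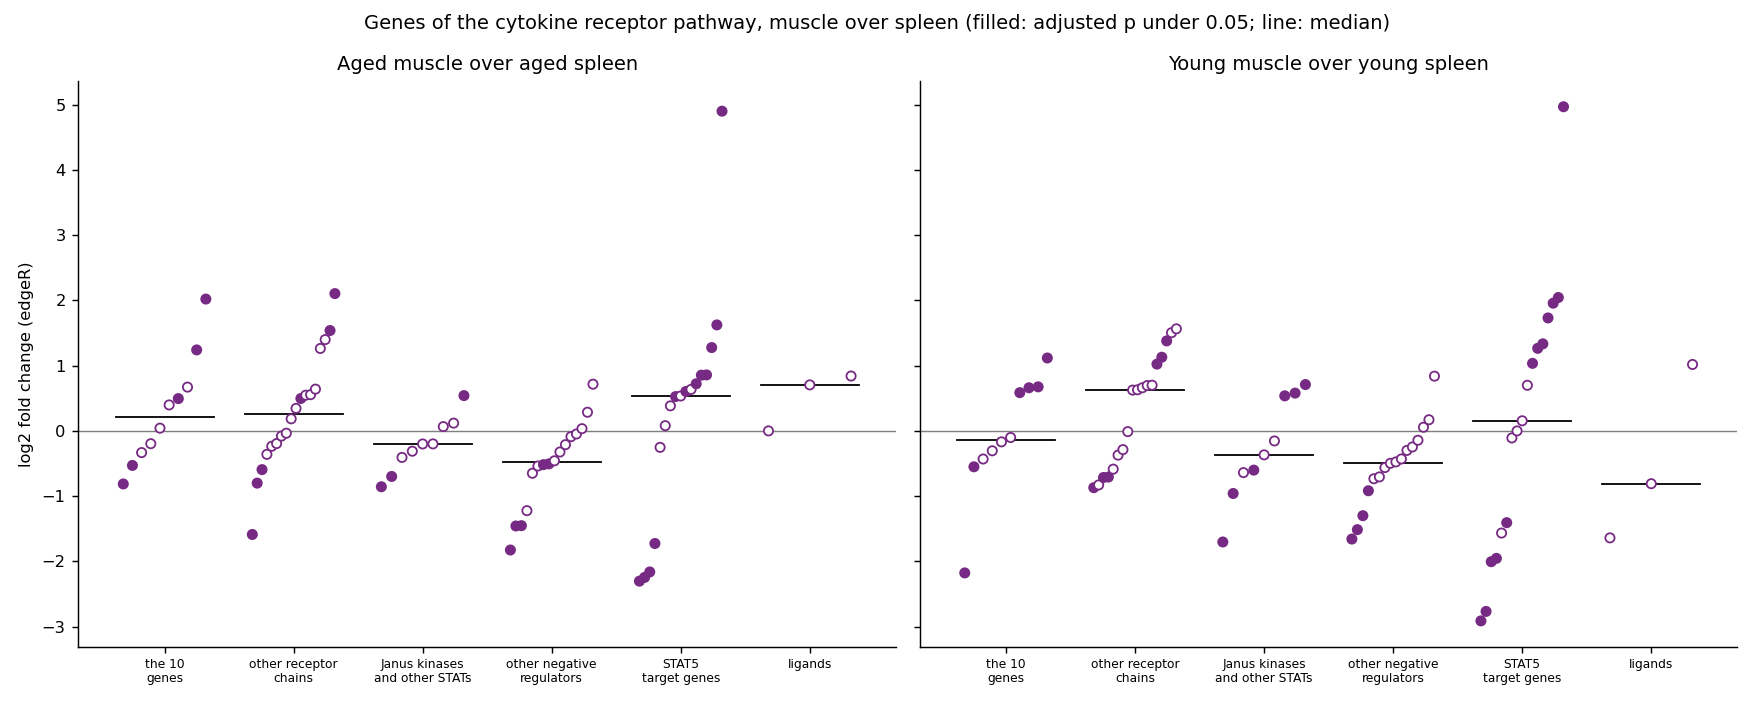
Log2 fold change of muscle over spleen for the 10 genes and for the other genes of the pathway by role, in aged mice (left) and young mice (right). Each point is a gene, filled where its adjusted p was under 0.05 in edgeR, and the line is the median of the group. Points of the other negative regulators lie mostly below 0 and none above 0 is filled, while STAT5 target genes spread in both directions.

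The 10 genes did not vary as one unit over the 8 libraries. As a description over 8 libraries that fall into 4 groups, Il7r and Cish had a Pearson r of 0.915 between their log2 levels, Il4ra and Stat5b 0.900, and Cish and Socs2 0.848. Il7r and Il6ra had -0.893, and Il2rb and Cish -0.878. Among 7760 genes whose mean log2 CPM was 4 or more, the genes whose levels were most like those of Cish were Cenpa (0.996) and Tpm4 (0.995). For Socs2 they were Prkx (0.994) and Snx18 (0.983), for Socs3 Lmbr1l (0.979) and Sepp1 (0.978). For Il2rb they were Pigo (0.991) and Clk2 (0.984), for Il7r Ptprj (0.991) and Ell2 (0.989), and for Il6ra Skp1a (0.987) and Cacybp (0.986). For Il2rg they were Ranbp10 (0.961) and Sec11a (0.930), and for Il4ra Flad1 (0.980) and Sf3b4 (0.980). Stat5a was most like Map2k5 (0.969) and Nck2 (0.939), and Stat5b most like Edem2 (0.961) and Hnrnpm (0.957). Values this high arise readily when libraries fall into a few groups and many genes are searched.

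Of the 15 calls made for the 10 genes over the 5 comparisons, 8 held under every alternative run. They were Cish at both ages, Socs2 and Il2rb in aged muscle against aged spleen, Il6ra in young muscle against young spleen, Il6ra and Socs2 with age in spleen, and the Il6ra difference of age effects.

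**Figure D5:**
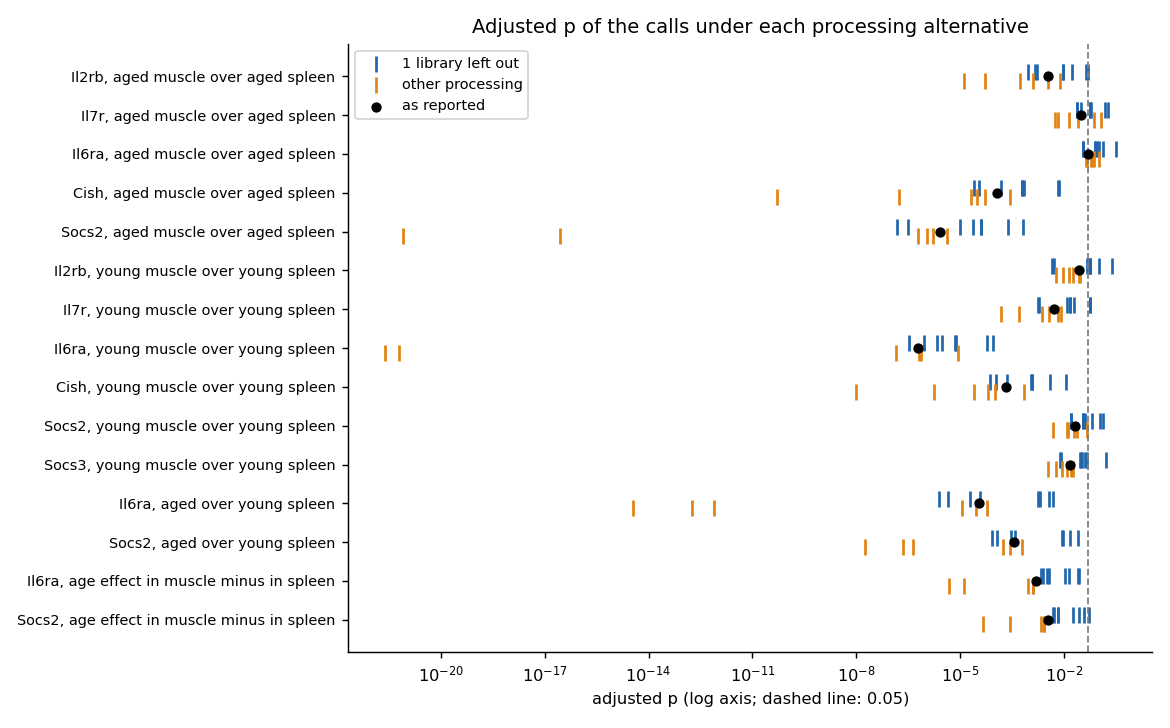
Adjusted p (log axis) of each call among the 10 genes as reported (black), with 1 library left out (blue) and under the other processing alternatives (orange). The dashed line marks 0.05. Cish, Socs2 and Il2rb in aged muscle over aged spleen stay left of the line throughout, whereas Il7r and Il6ra in the same comparison cross it.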

How the data were processed

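The deposited data are raw counts, whole reads for each gene in 1 table made by the authors, and all 8 of its sample columns were used. The submitters' processing notes name TopHat, TopHat2, Picard, SAMtools 0.1.19, HTSeq and the build mm10. Which annotation and strand setting were used for counting is not given in the sources used here. Besides Cish and Stat5a, genes on the opposite strand share 571 exonic bases with Il4ra and 242 with Il6ra. Per the labels' protocols, RNA was amplified by in vitro transcription and then by PCR, and no molecular identifiers are described, so counts are reads and not molecules. In R 4.3.3, edgeR 4.0.16 kept genes with filterByExpr, scaled libraries by TMM, and fitted 1 robust quasi-likelihood model to all 8 libraries, leaving 4 residual degrees of freedom. The 5 comparisons were tested as contrasts, with Benjamini-Hochberg adjustment over all 14772 genes tested. Intervals are 95%. The scripts were tested on simulated data. Alternatives were RLE scaling, library totals alone, DESeq2 1.42.0, no filter on low counts, only the groups compared, a replicate block, and leaving out each library. The members and gene lists were chosen with earlier results of these data known. Besides the 10 genes, Il2ra and Socs1 and at most 4 called genes of smallest p per list and comparison could be named. Likeness used log2 CPM with a prior count of 2. Positions come from GENCODE M21 on GRCm38, the assembly mm10 names. One gene that the naming rule gave is not reported here.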

Additional observations from a re-analysis of the deposited data

Results flagged for a closer look

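The change with age differed between the tissues for 2 of the 10 genes by a test of the difference itself, an interaction contrast in edgeR. For Il6ra the age effect in muscle minus that in spleen was 1.65 on the log2 scale (adjusted p = 0.00149). For Socs2 it was 1.43 (adjusted p = 0.00344). In both genes the aged and young muscle levels were close, and the aged spleen level was below the young spleen level. The groups hold 2 libraries each, too few to test a single library against its group.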

How the results depend on the processing

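Over all alternatives of the 10 genes' fold changes, 628 of 690 kept direction and side of the threshold. Scaling by library totals alone moved the median of all genes by 0.12 (age in muscle), 0.17 (age in spleen) and 0.11 (young tissues) on the log2 scale. With it, near-zero values changed sign with age in muscle for Il2rg (0.074), Il6ra (0.039), Cish (0.10) and Il2ra (0.072), with age in spleen for Cish (0.028) and Socs1 (0.096), and between young tissues for Il2rg (0.014). Without a filter, Il2rg in aged tissues turned to -0.013. With 1 library left out, values that changed sign ranged, with age in muscle, from -0.331 to 0.079 (Il2rb), -0.187 to 0.101 (Il2rg), -0.107 to 0.074 (Cish) and -0.129 to 0.045 (Il2ra). With age in spleen Socs1 ranged from -0.169 to 0.026. The difference of age effects ranged from -0.31 to 0.22 (Il4ra) and -0.19 to 0.16 (Stat5b), and Il2rg in aged tissues from -0.089 to 0.181. Of the 10 genes, 4 were called with age in spleen when only those groups were fitted. Leaving out 1 library gave 1 to 3 for the difference, 2 to 6 for young tissues and 3 to 6 for aged tissues. Among all genes, age in muscle called 298, against 497 with DESeq2, 748 without a filter, 50 with only the groups compared and 147 to 978 with 1 library left out. Age in spleen called 627 (307 higher, 320 lower; 489 and 236 with library totals alone), against 1039 without a filter, 1930 with only the groups compared and 141 to 1046 with 1 left out. The difference called 372, against 670 without a filter and 137 to 646. Young tissues called 3290, against 1444 to 3545, and aged tissues 2783, against 870 to 3922. The labels do not say that replicate numbers pair the libraries, and deviations of same-numbered libraries correlated between -0.065 and 0.256. With the replicate block, 479 genes were called with age in muscle, and of the 10 genes 0 with age in muscle, 2 with age in spleen, 2 for the difference, and 6 each for young and aged tissues, with Stat5a an addition in aged tissues. The cause of these shifts was not tested. With 2 libraries a group and a biological coefficient of variation of 0.288, small differences were not detectable.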
